A study of Mus musculus with 3 samples.

Results

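The 10 transcription factors described here, of 32287 features in the count tables, are genes that pattern the lung epithelium along its axis from airway to alveolus. They are Nkx2-1, Foxa1, Foxa2, Sox2, Sox9, Cebpa, Etv5, Klf5, Gata6 and Id2. They were chosen by name, and none of them was among the marker genes that sorted cells into classes. Their unique molecular identifiers (UMIs, 1 per captured transcript) were counted in barcodes with 500 or more genes and at most 15% mitochondrial UMIs.

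The data were 3 droplet single-cell RNA libraries, made with 5′ chemistry, of fluorescent lung cells sorted from Scgb1a1-CreER;Sftpc-DreER;R26-TLR mice 4 weeks after bleomycin, a drug that injures the alveolar epithelium. The Club-Tracer library held tdTomato+ cells, in which the Scgb1a1 promoter drove CreER. The BASC-Tracer library (BASCs-Tracer in the labels) held cells positive for both tdTomato and ZsGreen. The AT2-Tracer library held ZsGreen+ cells, in which the Sftpc promoter drove DreER. All cells came from the same genotype and the same injury, no uninjured library is described here, and the labels give no number of animals. Each lineage had 1 library, so no p-value is given, and a difference between lineages cannot be told apart from a difference between libraries.

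As background, Nkx2-1 is the homeodomain factor required for lung identity, and Foxa1 and Foxa2 are forkhead factors that act with it in airway and alveolus. In the developing lung Sox2 marks the proximal, airway-forming epithelium and is kept in adult airway cells. Sox9, Etv5 and Id2 mark the distal tips that form alveoli, and Etv5, an ETS factor, and Cebpa, a C/EBP factor, are kept in adult alveolar type 2 (AT2) cells, which make surfactant. Gata6 is a zinc finger factor of the endoderm, and Klf5 is a Krüppel-like factor of airway and alveolar epithelium.

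The comparisons turn on Sox2, the airway factor, and Etv5, the AT2 factor, and the 250 bases upstream of their annotated starts are shown for that reason. They are from RefSeq (GRCm38.p6), in the direction of transcription. Sox2 is on the + strand at chr3:34649745-34649994, with 72.0% G and C, and Etv5 is on the - strand at chr16:22439571-22439820, with 71.2% G and C, the outer of its annotated starts. Capitals mark exact matches, on either strand, to a CCAAT box (CCAAT), a GC box (GGGCGG), a forkhead motif (TGTTTAC) or a SOX motif (ACAAAG).
Sox2: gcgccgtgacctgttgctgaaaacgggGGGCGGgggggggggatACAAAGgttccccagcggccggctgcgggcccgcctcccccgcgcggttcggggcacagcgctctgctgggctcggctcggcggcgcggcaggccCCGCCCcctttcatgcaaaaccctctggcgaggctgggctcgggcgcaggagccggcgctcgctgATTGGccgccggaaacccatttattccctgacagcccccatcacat
Etv5: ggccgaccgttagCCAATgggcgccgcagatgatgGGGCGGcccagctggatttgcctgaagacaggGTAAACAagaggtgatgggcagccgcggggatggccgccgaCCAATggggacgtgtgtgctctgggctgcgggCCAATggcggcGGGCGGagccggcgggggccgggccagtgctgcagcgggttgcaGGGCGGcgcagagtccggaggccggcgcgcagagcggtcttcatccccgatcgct
The Sox2 window held 2 GC boxes, 1 SOX motif and 1 CCAAT box. The Etv5 window held 3 CCAAT boxes, 3 GC boxes and 1 forkhead motif. The window of the inner Etv5 start, not printed here, held 1 CCAAT box and none of the other motifs. Of 27025 RefSeq promoter windows, 34.5% held a CCAAT box, 32.9% a GC box, 16.5% a SOX motif and 3.09% a forkhead motif. Neither printed window held TATAAA or the ETS motif CCGGAAG, which 12.97% and 7.05% of all windows held. The matched letters are a description and not evidence of binding. The promoter table held 7 of the 10 genes.

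All 10 gene identifiers matched the GRCm38 annotation (GENCODE M21). Sox2 lies on chromosome 3, at 34650405 to 34652461, within the long noncoding gene Sox2ot on the same strand, and Etv5 on chromosome 16, at 22381309 to 22439719, overlaps no other gene. RefSeq and this annotation place the starts differently. Part of the printed Etv5 window lies within the Etv5 span given here, and the Sox2 window does not reach the Sox2 start given here. Nkx2-1, Cebpa and Gata6 each overlap a gene on the opposite strand. Reads from the same-strand overlap of Sox2 and Sox2ot could be split or lost in counting. An effect of the opposite-strand overlaps was not tested.

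Of 16627 barcodes, 10457 passed both limits: 3196 of 5304 in Club-Tracer, 1402 of 2439 in BASC-Tracer and 5859 of 8884 in AT2-Tracer. Median UMIs per kept cell were 15406, 15222 and 9682 in that order. Cells were placed in classes by summed marker UMIs per 10000. Cells in both the upper airway secretory and club gates were kept as upper airway secretory. Their class had a median club marker sum of 2290 per 10000 UMIs in Club-Tracer. Cells in both the AT2 and club gates formed a class of their own. A cell in no gate was left out, as was one in any other mix of gates, the transitional gate aside. Between 73.8% and 81.2% of kept cells of a library entered a class. The markers of the other classes did not vanish in every class. The median club marker sum in AT2 cells was 140 per 10000 UMIs in Club-Tracer, 38.8 in BASC-Tracer and 7.04 in AT2-Tracer. The libraries are labelled epithelial, yet 71 cells in Club-Tracer, 123 in BASC-Tracer and 1836 in AT2-Tracer were immune-gated, the last being 31.3% of that library with ZsGFP at 226 CPM. Pairs of libraries shared 73 to 122 barcode sequences. The reporters followed the sort: in AT2-gated cells ZsGFP reached 47.6 CPM (UMIs of a gene per 1000000 UMIs of the class) in Club-Tracer, 8884 in BASC-Tracer and 7288 in AT2-Tracer, while tdT reached 1345, 1657 and 0.797 CPM.

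Counting error is given as exact 95% intervals, which cover counting only. A gene was called between 2 groups when log2((CPM + 5)/(CPM + 5)) passed 2-fold and the higher group had 20 CPM and 30 UMIs or more. CPM here is not per length, so levels are compared between cells and not between genes. Classes with fewer than 50 cells were not compared. The 10 genes were placed in 17 epithelial points of class and library.

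**Figure D1:**
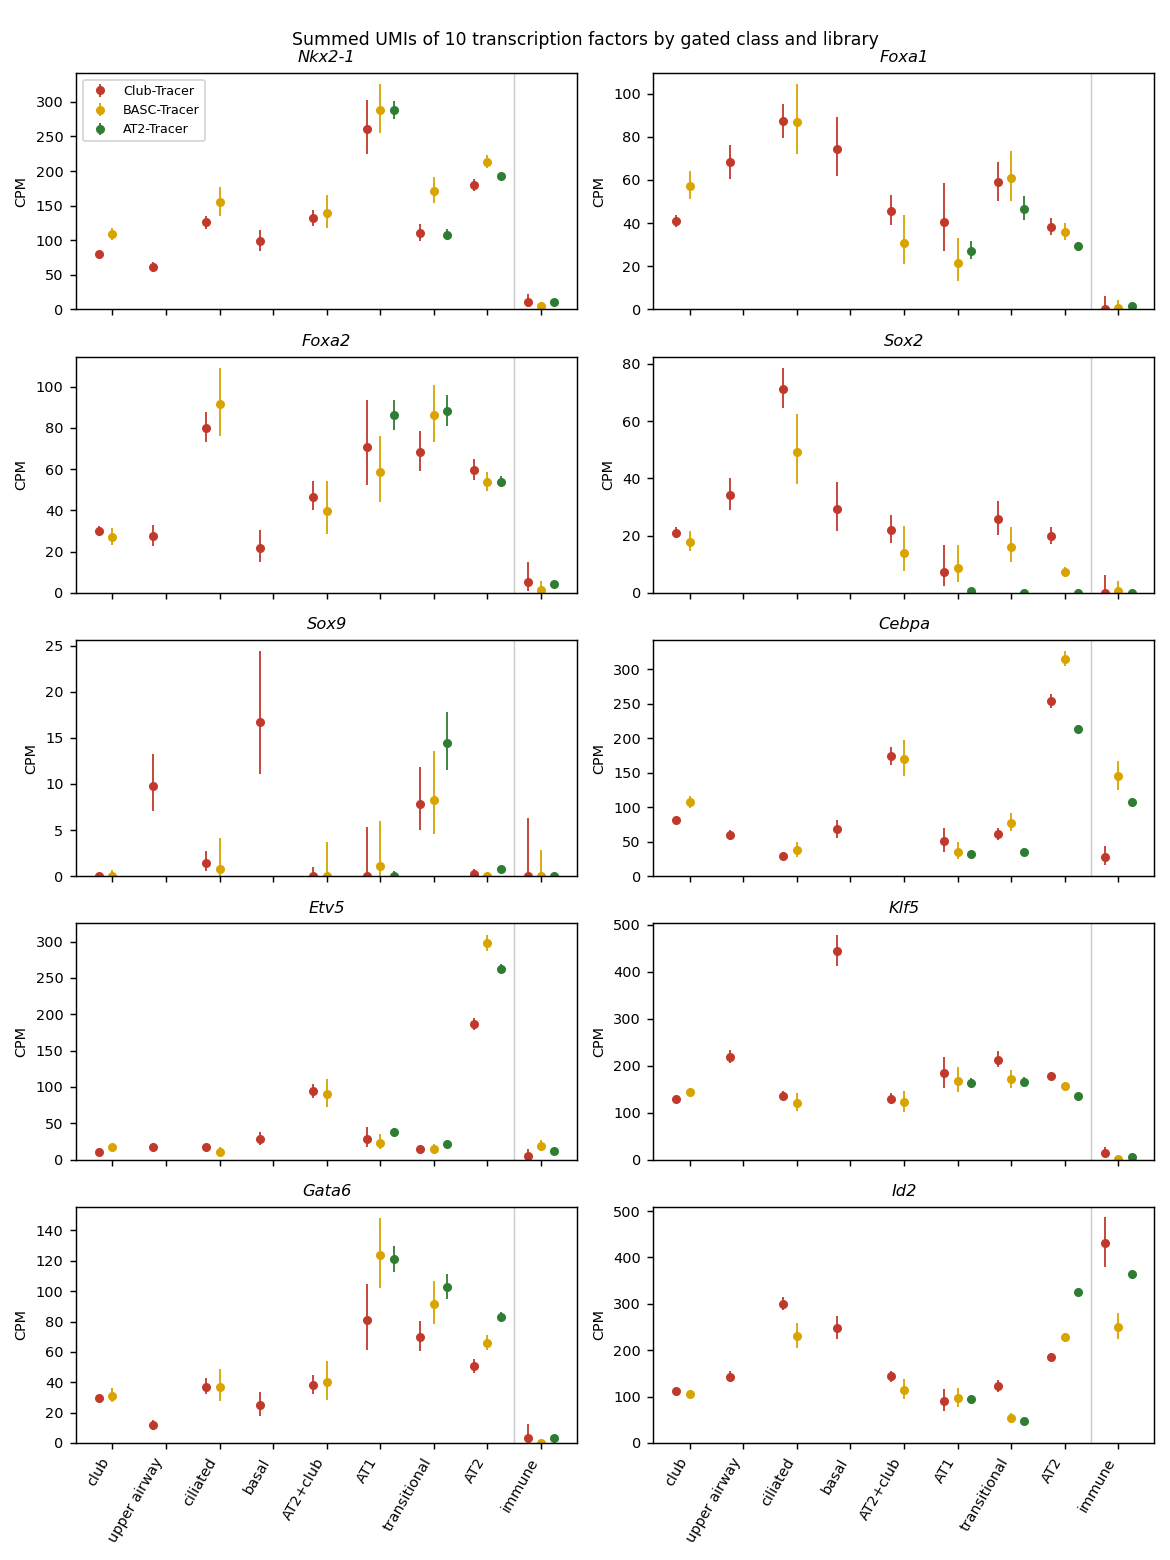
Level of each of the 10 transcription factors in CPM (y axis, linear from 0) by gated class (x axis) and library (colours), with exact 95% counting intervals. Etv5 and Cebpa stand highest in AT2 cells, Klf5 in basal cells, and Sox2 in ciliated cells, with Sox2 in AT2 and transitional cells seen in Club-Tracer and BASC-Tracer and at or near 0 in AT2-Tracer.

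Sox2, the proximal factor, was found in every airway class and in alveolar cells of the Scgb1a1-labelled libraries. In AT2-gated cells it had 187 UMIs in 418 Club-Tracer cells (19.8 CPM, 17.1 to 22.9), 69 UMIs in 331 BASC-Tracer cells (7.18 CPM, 5.58 to 9.08) and 1 UMI in 1662 AT2-Tracer cells (0.035 CPM, 0.001 to 0.193). The 3 intervals did not overlap, and Sox2 was lowest in AT2-Tracer although that class held the most cells. The Club-Tracer over AT2-Tracer ratio was 573, with a counting interval of 102 to 22742 that rests on the single AT2-Tracer UMI. The BASC-Tracer over AT2-Tracer ratio was 207 (36.0 to 8300). On the log2 scale with 5 CPM added these differences were 2.30 and 1.27. Neither entered the calls, because 19.8 and 7.18 CPM lie under the 20 CPM minimum.

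Club cells of the same libraries set the scale for these values. Sox2 stood at 21.02 CPM (19.2 to 23.0) in club-gated Club-Tracer cells and at 17.7 CPM (14.4 to 21.5) in club-gated BASC-Tracer cells. Club-Tracer AT2 cells were therefore close to Club-Tracer club cells in Sox2, with a club over AT2 ratio of 1.06 (0.893 to 1.26). In BASC-Tracer the club over AT2 ratio was 2.47 (1.80 to 3.41). Of club-cell UMIs, Scgb1a1 alone took 367110 CPM in Club-Tracer, which lowers the share of all other genes there. With secretoglobins, surfactant, lysozyme, reporter and mitochondrial genes left out of the totals, Sox2 was 35.7 CPM in club cells and 24.3 CPM in AT2 cells of Club-Tracer, and the log2 ratio was 0.47 in place of 0.07. On those totals the Club-Tracer over AT2-Tracer difference in AT2 cells was 2.54 on the log2 scale and passed the minimum.

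Shares of cells with a Sox2 UMI gave the same order when each cell was thinned to 5000 UMIs. In AT2 cells the thinned share was 9.19% in Club-Tracer (35 of 381 cells, 6.48 to 12.5), 4.53% in BASC-Tracer (14 of 309, 2.50 to 7.49) and 0 of 1450 in AT2-Tracer (upper bound 0.254%). Thinning left out 37, 22 and 212 shallower AT2 cells. Unthinned, the shares were 28.2%, 15.4% and 0.06%, at median depths of 22584, 28387 and 16703 UMIs. Immune-gated cells, which should lack Sox2, had a thinned share of 0 of 34, 0 of 87 and 0 of 1414 in the same order of libraries, and unthinned 0, 1 and 0 cells with a UMI. Their median depths were 4872, 9406 and 8244 UMIs. The 34 Club-Tracer cells were too few to tell their share from the 9.19% of AT2 cells. In Club-Tracer, immune cells held Scgb1a1 at 0.771% of its club-cell level and AT2 cells at 4.29%, so the background is not alike. Sox2 was measurable in the AT2-Tracer library: 15 ciliated-gated cells there, too few for a comparison, held 9 of its 18 Sox2 UMIs.

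Free or carried-over club RNA was sized from club genes in the same cells. In Club-Tracer AT2 cells, Scgb1a1 stood at 4.29% of its level in club cells, and Sox2 carried in that ratio would be 0.902 CPM. The ratio of Cyp2f2, a club cell cytochrome P450, would give 1.90 CPM, and that of the ciliated marker list 0.427 CPM. The measured value was 19.8 CPM. In BASC-Tracer AT2 cells the same ratios would give 0.338, 0.773 and 0.276 CPM, against the measured 7.18 CPM. These club and ciliated markers also set the gates, which kept cells high in them out of the AT2 class. The ratios are therefore limited by the gates, as are those of transitional and AT1 cells below. The part of carried-over RNA in the AT2 values was not tested. Club-Tracer AT2 cells with under 100 club marker UMIs per 10000 (155 cells) held 73 Sox2 UMIs, or 18.1 CPM (14.2 to 22.7). Those with 100 to under 300 (158 cells) had 16.7 CPM, and those with 300 to under 1000 (105 cells) had 28.2 CPM (21.5 to 36.4). In BASC-Tracer the 3 ranges had 5.91, 9.04 and 14.0 CPM.

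**Figure D2:**
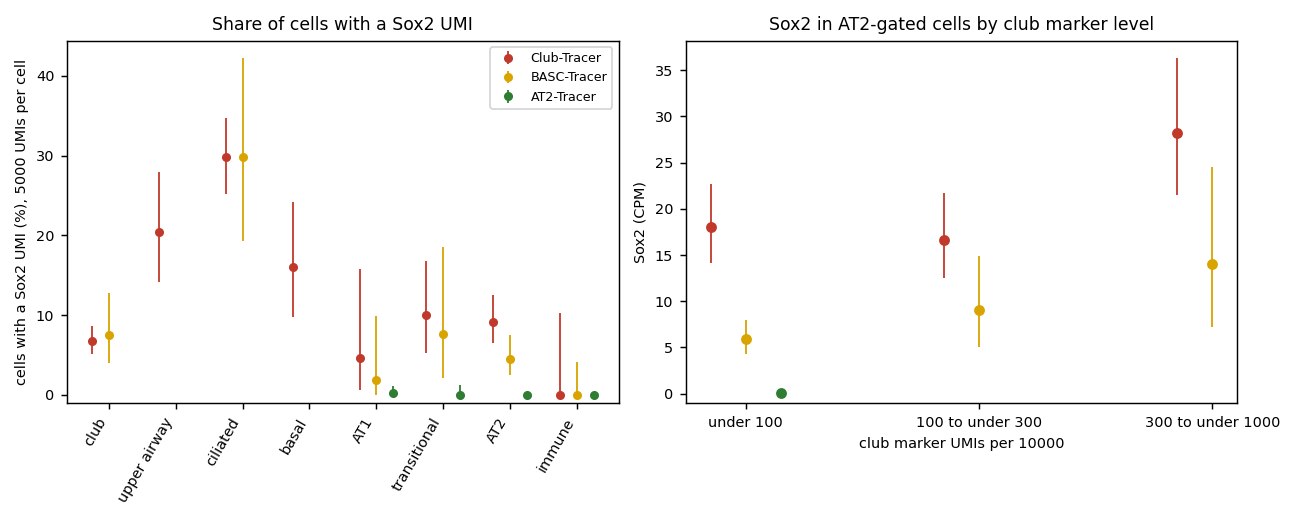
Left, percent of cells with a Sox2 UMI after thinning to 5000 UMIs per cell, by gated class and library; right, Sox2 in CPM in AT2-gated cells by their club marker UMIs per 10000, for ranges with 20 or more cells. Bars are exact 95% counting intervals. Among cells with under 100 club marker UMIs, Club-Tracer (18.1 CPM) and BASC-Tracer (5.91 CPM) both stand above AT2-Tracer (0.035 CPM).

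Sox2 and the AT2 factors were also counted in the same cells. Of 118 Club-Tracer AT2 cells with a Sox2 UMI, 107 also held an Etv5 UMI and 115 a Cebpa UMI, so that cells with both Sox2 and Etv5 were 25.6% of the class (21.5 to 30.1). In all 418 cells of that class, 352 held Etv5 and 361 held Cebpa. Of 51 BASC-Tracer AT2 cells with Sox2, 50 also held Etv5, as did 300 of all 331. In Club-Tracer club cells, 73 of 288 cells with Sox2 held Etv5, and 187 of all 1049 did. Cells with Sox2 had deeper counts: Club-Tracer AT2 cells with Sox2 had a median of 28393 UMIs, and all Club-Tracer AT2 cells had 22584. The part of doublets in these pairs was not tested cell by cell, and with barcodes scored as doublets left out Sox2 stood at 19.5 CPM in Club-Tracer AT2 cells.

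Transitional cells, gated on Krt8, Cldn4 and related genes, gave the same order. Sox2 had 75 UMIs in 133 Club-Tracer cells (25.7 CPM, 20.2 to 32.2), 29 in 59 BASC-Tracer cells (15.9 CPM, 10.7 to 22.9) and 0 in 321 AT2-Tracer cells. Sox2 was absent from the counts of the AT2-Tracer class, where 0 UMIs allow up to 0.502 CPM (3 counts over the class). Sox2 was thus at least 51.1-fold higher in Club-Tracer and at least 31.7-fold higher in BASC-Tracer than in AT2-Tracer transitional cells. Club and ciliated RNA in the ratios of Scgb1a1, Cyp2f2 and the ciliated list would give 0.882, 4.28 and 2.33 CPM in the Club-Tracer class. Sftpc in transitional cells stood at 249, 2601 and 2564 CPM in Club-Tracer, BASC-Tracer and AT2-Tracer, and at 448 CPM in Club-Tracer club cells. The median club marker sum of transitional cells was 105 per 10000 UMIs in Club-Tracer, 6.81 in BASC-Tracer and 0 in AT2-Tracer. The part of airway cells in the Club-Tracer class was not tested.

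AT1 cells, the flat cells of gas exchange, held few Sox2 UMIs. There were 5 in 75 Club-Tracer cells (7.22 CPM), 8 in 84 BASC-Tracer cells (8.52 CPM) and 3 in 851 AT2-Tracer cells (0.463 CPM). Levels in the Scgb1a1-labelled libraries were again the higher ones. The ratios over AT2-Tracer were 15.6 (3.03 to 100.4) and 18.4 (4.41 to 108). Against the 7.22 CPM in Club-Tracer, club RNA in the ratio of Scgb1a1 would give 0.743 CPM, in that of Scgb3a2 0.227 CPM and in that of Cyp2f2 9.06 CPM, and the part of carried-over RNA in the AT1 values was not tested. The ciliated list would give 9.14 CPM there, although Foxj1, the ciliated cell regulator, stood at 1.44 CPM in those cells and would be at 142 CPM in that ratio.

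Airway classes were ordered among themselves in Sox2. Ciliated cells had 71.3 CPM (64.6 to 78.6) in Club-Tracer and 49.1 CPM (37.9 to 62.4) in BASC-Tracer. Upper airway secretory cells had 34.2 CPM, basal cells 29.2 CPM and cells in both the AT2 and club gates 22.0 CPM, all in Club-Tracer. The BASC-Tracer cells in both gates had 13.96 CPM, but their median depth was 1408 UMIs and 138 of 159 were below 5000. Of the 16 neighbouring pairs in the order of 17 epithelial points, 14 had overlapping intervals for Sox2. Ciliated over AT2 was 3.59 (3.02 to 4.30) in Club-Tracer and 6.84 (4.80 to 9.72) in BASC-Tracer.

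Etv5, the distal ETS factor, was lower in airway cells than in AT2 cells. Club cells had 10.8 CPM in Club-Tracer and 16.7 CPM in BASC-Tracer. Transitional cells had 15.05, 14.3 and 21.8 CPM, and AT1 cells 28.9, 23.4 and 38.3 CPM, in Club-Tracer, BASC-Tracer and AT2-Tracer. Between these and AT2 cells lay cells in both the AT2 and club gates, with 93.9 CPM in Club-Tracer and 89.7 CPM in BASC-Tracer. AT2 cells stood at 187 CPM in Club-Tracer, 299 CPM in BASC-Tracer and 263 CPM in AT2-Tracer, so that every AT2 point was above every other class. Immune cells had 5.09, 18.2 and 11.5 CPM in the same order of libraries.

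**Figure D3:**
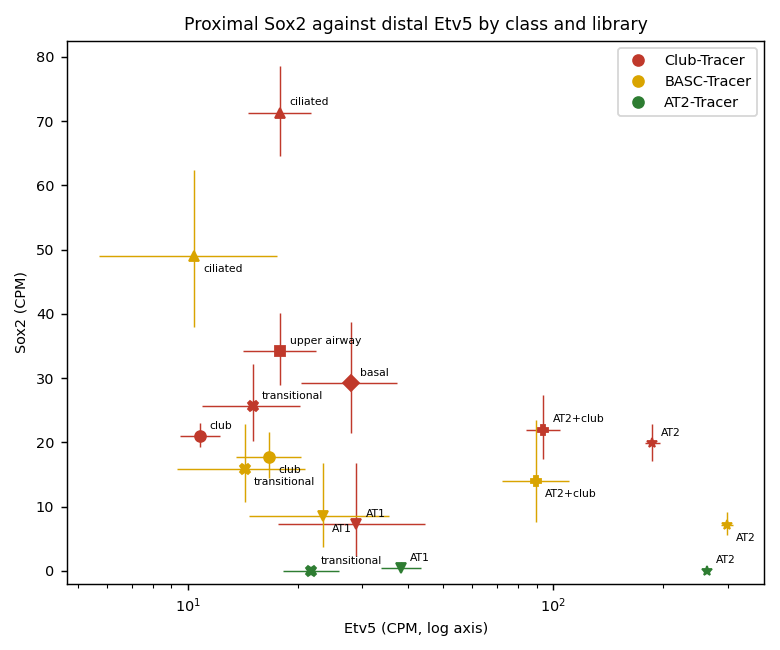
Sox2 (y axis, CPM) against Etv5 (x axis, CPM, log axis) for 17 epithelial points of class and library, with exact 95% counting intervals; marker shape gives the class and colour the library. The 3 AT2 points share high Etv5 and differ in Sox2, at 19.8 CPM in Club-Tracer, 7.18 CPM in BASC-Tracer and 0.035 CPM in AT2-Tracer.

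Cebpa, needed for AT2 maturation, was also highest in AT2 cells. Club cells had 81.6 and 108 CPM in Club-Tracer and BASC-Tracer, and ciliated cells 29.6 and 37.9 CPM. AT1 cells ranged over 31.8 to 50.5 CPM and transitional cells over 35.3 to 77.4 CPM. AT2 cells had 254, 315 and 214 CPM in Club-Tracer, BASC-Tracer and AT2-Tracer. Immune cells reached 145 CPM in BASC-Tracer, and Cebpa is a known myeloid gene. Id2, an inhibitor of basic helix-loop-helix factors, is also made by immune cells, which had 431, 251 and 363 CPM. In AT2 cells Id2 stood at 185 CPM in Club-Tracer, 228 CPM in BASC-Tracer and 325 CPM in AT2-Tracer.

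Sox9, the distal tip factor, was near 0 in AT2 and AT1 cells. Across alternatives AT1 cells had 0 CPM in Club-Tracer and AT2-Tracer and 1.06 to 1.21 CPM in BASC-Tracer. In the airway, there were 0 UMIs in 1049 Club-Tracer club cells. Transitional cells held Sox9: 23 UMIs in 6 Club-Tracer cells (7.87 CPM), 15 UMIs in 7 BASC-Tracer cells (8.23 CPM) and 86 UMIs in 32 AT2-Tracer cells (14.4 CPM, 11.5 to 17.8). AT2 cells held 2, 0 and 21 Sox9 UMIs in the same order of libraries. The transitional over AT2 ratio was 19.8 (12.2 to 33.6) in AT2-Tracer and 37.1 (9.16 to 324) in Club-Tracer, where it rests on 2 UMIs in AT2 cells and on 6 transitional cells. The intervals do not cover the uneven spread of UMIs over cells. Across alternatives Sox9 in transitional cells ranged over 3.36 to 15.7 CPM in Club-Tracer and 10.3 to 23.5 CPM in AT2-Tracer. In BASC-Tracer it was at least 26.4-fold. Basal cells had 27 UMIs (16.8 CPM). The 42 UMIs of upper airway secretory cells were uneven, since 27 came from 1 cell. None of these values reached the 20 CPM minimum. With marker gates 2 times as high, 127 AT2-Tracer cells in place of 321 were transitional, their Sox9 was 23.5 CPM, and transitional over AT2 was called at 2.38 on the log2 scale.

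The general lung factors were present in all epithelial classes. Nkx2-1 was highest in AT1 cells, at 261, 289 and 288 CPM in Club-Tracer, BASC-Tracer and AT2-Tracer. It reached 80.03 and 108 CPM in club cells of Club-Tracer and BASC-Tracer, and 179, 214 and 193 CPM in AT2 cells of the 3 libraries. Immune cells had 4.54 to 10.2 CPM of Nkx2-1, and in AT2-Tracer they ranged over 3.46 to 24.0 CPM across alternatives. The background of the epithelial classes need not be the same. Foxa1 was highest in ciliated cells, at 87.1 and 87.0 CPM, and in basal cells, at 74.5 CPM, while club cells had 40.8 CPM in Club-Tracer and 57.4 CPM in BASC-Tracer. Transitional cells had 58.8, 60.9 and 46.7 CPM and AT1 cells 40.4, 21.3 and 27.2 CPM of Foxa1, against 38.4, 36.0 and 29.2 CPM in AT2 cells. Foxa2 was instead low in basal cells, at 21.7 CPM, and high in ciliated cells, at 80.1 and 91.4 CPM. Transitional cells had 68.4, 86.2 and 88.2 CPM of Foxa2, and AT2 cells 59.6, 53.7 and 53.8 CPM. In immune cells both forkhead genes were at most 5.09 CPM.

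Gata6 was higher in AT1, transitional and AT2 cells. Club cells had 29.4 and 31.2 CPM in Club-Tracer and BASC-Tracer, and upper airway secretory cells 11.6 CPM. AT1 cells had 80.9, 124 and 121 CPM in Club-Tracer, BASC-Tracer and AT2-Tracer, transitional cells 69.8, 91.6 and 103 CPM, and AT2 cells 50.6, 66.0 and 82.8 CPM. Klf5 was highest in basal cells, at 445 CPM (413 to 479), followed by upper airway secretory cells at 219 CPM. Its other epithelial points lay within 121 to 213 CPM, and 15 of its 16 neighbouring pairs overlapped.

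Airway against AT2 cells was compared within a library. For club over AT2 cells in Club-Tracer, 15.8% of 5458 genes were called, 130 (2.38%) higher and 732 (13.4%) lower in club cells (265 and 362 with the abundant genes left out of the totals). Of the 10 factors 9 met the minimum and 3 were called, all lower: Etv5 by 3.60, Cebpa by 1.58 and Nkx2-1 by 1.12 on the log2 scale. The median of all genes was -0.56. Relative to it Etv5 was at -3.04, Cebpa at -1.02 and Nkx2-1 at -0.56, and Nkx2-1 lost its call (-0.67) on the reduced totals. In BASC-Tracer 16.5% were called (187, 3.14%, higher and 793, 13.3%, lower, or 330 and 438 on the reduced totals). There 3 of 8 factors were called lower, Etv5 (-3.81), Cebpa (-1.51) and Id2 (-1.08), of which Id2 lost its call (-0.70), while Sox2 gained one (1.29). Reduced totals moved the median of all genes by 0.41 in Club-Tracer and 0.35 in BASC-Tracer here, by 0.26 for upper airway secretory cells and by -0.17 to -0.21 in the other comparisons with AT2 cells.

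Ciliated over AT2 cells gave 37.6% called genes in Club-Tracer (29% higher and 8.6% lower) and 37.3% in BASC-Tracer (27% higher and 10.2% lower). In both, 4 of 9 factors were called, a share near that of all genes. The median of all genes was 0.43 in Club-Tracer and 0.33 in BASC-Tracer. Of the factors, Sox2 (1.62 and 2.15) and Foxa1 (1.09 and 1.17) were higher, and Etv5 (-3.07 and -4.30) and Cebpa (-2.90 in each) were lower in ciliated cells. Foxa1 lost its call on the reduced totals, at 0.89 and 0.997. Upper airway secretory over AT2 cells (14.7% called, 226, 4%, higher and 607, 10.7%, lower, or 418 and 439 on reduced totals) had Etv5 (-3.06), Cebpa (-2.005), Gata6 (-1.74) and Nkx2-1 (-1.49) lower, and Foxa1 at 0.75, or 1.05 on reduced totals, where it was called. Foxa2 was at -0.99 there, and at -1.003 to -1.19 and called lower under 6 other settings. Its weakest value over the settings was -0.75. Basal over AT2 cells (19.4% called, 826, 12.6%, higher and 445, 6.79%, lower, or 627 and 622) had Klf5 higher (1.29) and Etv5 (-2.54), Cebpa (-1.83) and Foxa2 (-1.27) lower. On reduced totals Nkx2-1 (-1.06) and Gata6 (-1.12) were also called lower in basal cells.

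AT1 over AT2 cells were 2-fold apart in 19.9%, 21.8% and 17.5% of genes in Club-Tracer, BASC-Tracer and AT2-Tracer, with 13.7%, 14.6% and 12.7% higher and 6.22%, 7.25% and 4.8% lower. Etv5 (-2.50, -3.42 and -2.63) and Cebpa (-2.22, -2.997 and -2.57) were called lower in AT1 cells of all 3 libraries. Id2 was called lower in BASC-Tracer (-1.21) and AT2-Tracer (-1.72), and in Club-Tracer it was at -0.98, or -1.20 on reduced totals, where it was called. No factor was called higher, and Sox2 in Club-Tracer, at -1.02 and under the minimum, was called lower (-1.22) on reduced totals. Transitional over AT2 cells were 2-fold apart in 16.6%, 17.3% and 19% of genes, with 11.9%, 12.3% and 12.6% higher and 4.7%, 5% and 6.39% lower. Etv5 (-3.26, -3.98 and -3.32) and Cebpa (-1.97, -1.96 and -2.44) were again called lower in each library. Id2 was called lower in BASC-Tracer (-1.9996) and AT2-Tracer (-2.64), and stood at -0.58 in Club-Tracer. With cells of 100 or more club marker UMIs per 10000 left out, it was called lower in Club-Tracer as well (-1.21). Nkx2-1 was at -0.81 in AT2-Tracer, or -1.04 and called on reduced totals. In the AT1 comparisons 644, 851 and 855 genes were called higher and 293, 424 and 324 lower, which on reduced totals became 483, 651 and 625 higher and 442, 610 and 493 lower. In the transitional ones 792, 866 and 869 higher and 313, 352 and 440 lower became 550, 608 and 602 higher and 434, 489 and 610 lower.

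Between lineages within AT2 cells, no factor other than Sox2 was 2-fold apart. In Club-Tracer over AT2-Tracer 4.35% of genes were called (1.97% higher and 2.38% lower), and in BASC-Tracer over AT2-Tracer 1.51% (1.02% and 0.485%). None of the 8 factors that met the minimum was called in either. Id2 was lower, at -0.80 in Club-Tracer and -0.50 in BASC-Tracer, and Gata6 at -0.66 and -0.31. Their counting intervals lay under 1, with Id2 at 0.568 (0.540 to 0.598) and Gata6 at 0.611 (0.553 to 0.674) of the AT2-Tracer level in Club-Tracer. In cells with under 100 club marker UMIs per 10000, Gata6 was 64.2 CPM in Club-Tracer and 82.9 CPM in AT2-Tracer. Club-Tracer cells with 100 to under 300 had 40.6 CPM of Gata6, and those with 300 to under 1000 had 40.1 CPM. Under 100, Id2 was 189 CPM in Club-Tracer and 326 CPM in AT2-Tracer. Etv5 was at -0.48 in Club-Tracer and 0.18 in BASC-Tracer. Klf5 was at 0.38 and 0.20, Cebpa at 0.24 and 0.55 and Foxa1 at 0.34 and 0.26. Both contrasts share the AT2-Tracer library.

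In AT1 cells 6.87% of genes were called in Club-Tracer over AT2-Tracer (2.07% higher and 4.8% lower) and 1.28% in BASC-Tracer over AT2-Tracer (0.649% and 0.633%). None of the 7 and 8 factors that met the minimum was called. In transitional cells 7.58% of genes were called in Club-Tracer over AT2-Tracer (4.37% higher and 3.21% lower) and 2.69% in BASC-Tracer over AT2-Tracer (2% and 0.689%). Sox2 (2.62) and Id2 (1.26) were called higher in Club-Tracer. Id2 stood at 122 CPM in Club-Tracer, 53.2 CPM in BASC-Tracer and 48.0 CPM in AT2-Tracer transitional cells, and with cells of 100 or more club marker UMIs per 10000 left out its log2 difference was 0.66 and not called. Cebpa was called higher in BASC-Tracer (1.03), at 77.4 CPM against 35.3 CPM in AT2-Tracer. Sox2 in BASC-Tracer was at 2.06 and under the minimum.

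Between Club-Tracer and BASC-Tracer, club cells were 2-fold apart in 0.375% of genes, 6 (0.132%) higher and 11 (0.243%) lower in Club-Tracer, or 16 and 10 on reduced totals. Ciliated cells were 2-fold apart in 0.498% (0.235% higher and 0.263% lower). None of the 8 factors that met the minimum was called in either class. Sox2 in ciliated cells was 1.45 times as high in Club-Tracer (1.12 to 1.92).

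**Figure D4:**
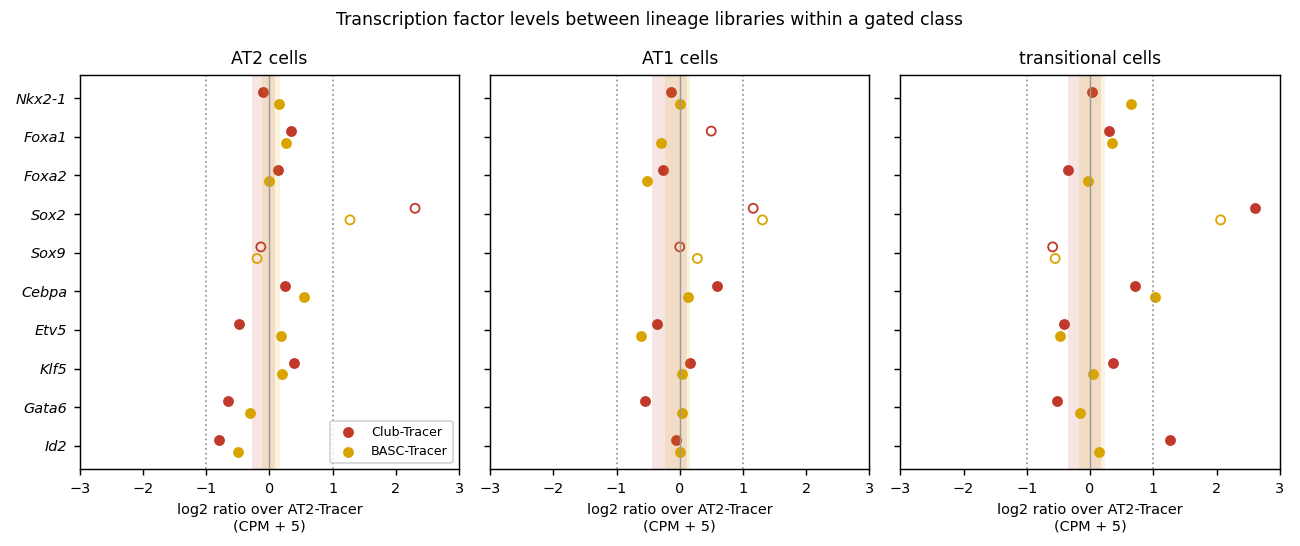
log2 ratio, with 5 CPM added, of each factor (rows) in Club-Tracer (red) and BASC-Tracer (yellow) over AT2-Tracer, within AT2, AT1 and transitional cells. Open circles did not meet the minimum of 20 CPM and 30 UMIs, shaded bands are the middle 50% of all genes and dotted lines mark 2-fold. Sox2 lies farthest to the right in every panel, at 2.30 and 1.27 in AT2 cells.

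The genes whose levels ran most like Sox2 over 20 points of class and library, immune cells included, were Tbx1 (Pearson r = 0.951), Adam28 (0.948), Rassf9 (0.929) and Enah (0.919), of 9825 genes ranked. The points share libraries and differ in depth, so r is a description. Tbx1, a T-box transcription factor, stood at 37.0 CPM in Club-Tracer, 20.7 CPM in BASC-Tracer and 2.49 CPM in AT2-Tracer AT2 cells. In transitional cells Tbx1 had 35.6, 19.8 and 2.84 CPM. These values were among those that chose Tbx1. Those most like Etv5 were Elovl1 (0.934), Phf24 (0.933), Prmt8 (0.929) and Fasn (0.926). Fasn is fatty acid synthase and Elovl1 a fatty acid elongase. Among the 10 factors, Foxa1 was nearest to Sox2 (0.747) and Cebpa nearest to Etv5 (0.752), and Sox2 against Etv5 gave -0.108.

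A wider list of 32 other lung epithelial transcription factors was set beside these. In club over AT2 cells of Club-Tracer 25 met the minimum, beside 2.38% of all genes higher and 13.4% lower, with 2 higher, Hopx (1.70) and Id3 (1.19), and 7 lower, among them Tfcp2l1 (-2.17), Foxp1 (-1.67) and Srebf1 (-1.63), a regulator of lipid synthesis. In ciliated cells Foxj1, the regulator of motile cilia, stood at 1108 CPM in Club-Tracer and 1215 CPM in BASC-Tracer. Trp63, the basal cell factor, stood at 127 CPM in basal cells and 2.55 CPM in AT2 cells of Club-Tracer. In AT1 over AT2 cells Hopx (5.38, 5.04 and 4.46), Tead1 (2.35, 3.07 and 2.61) and Id3 (2.55, 2.18 and 1.44) were higher in all 3 libraries. Elf5, an ETS factor, was lower in AT1 cells in each (-2.44, -3.48 and -3.50). In all, 6 of 23, 6 of 26 and 6 of 25 were higher and 3, 5 and 3 lower in AT1 cells, beside 13.7%, 14.6% and 12.7% higher and 6.22%, 7.25% and 4.8% lower of all genes. In club over AT2 cells of BASC-Tracer 2 of 25 were higher and 6 lower, beside 3.14% and 13.3% of all genes. In upper airway secretory cells 3 of 26 were called each way, beside 4% higher and 10.7% lower. Ciliated cells had 8 of 27 higher in each library, beside 29% of all genes in Club-Tracer and 27% in BASC-Tracer, a share near the background. There 7 were lower in Club-Tracer and 8 in BASC-Tracer, beside 8.6% and 10.2%. Basal cells had 9 of 27 higher and 1 lower, beside 12.6% and 6.79%. Transitional over AT2 cells had 6 of 26, 7 of 26 and 4 of 25 higher and 6, 4 and 6 lower in Club-Tracer, BASC-Tracer and AT2-Tracer, beside 11.9%, 12.3% and 12.6% higher and 4.7%, 5% and 6.39% lower of all genes.

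Between lineages none of the 25 listed factors that met the minimum was called in AT2 cells, in Club-Tracer or BASC-Tracer over AT2-Tracer. In AT1 cells 3 of 22 were higher in Club-Tracer and 1 of 23 in BASC-Tracer, led by Id1 (1.91 and 1.14), beside 2.07% and 0.649% of all genes. In transitional cells 4 of 26 were higher in Club-Tracer, led by Foxj1 (2.95), Id1 (2.37) and Elf5 (1.95). In BASC-Tracer 4 of 25 were higher, led by Foxj1 (2.17), Elf5 (1.64) and Epas1 (1.14). Of all genes 4.37% were called higher in Club-Tracer and 2% in BASC-Tracer. Foxj1 stood at 86.5 CPM in Club-Tracer and 48.3 CPM in BASC-Tracer against 6.86 CPM in AT2-Tracer. Ciliated RNA in the ratio of the ciliated marker list would give 36.3 CPM in Club-Tracer and 36.5 CPM in BASC-Tracer, and its part in the Foxj1 difference was not tested further.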

How the data were processed

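The 3 deposited tables hold raw UMI counts per gene and barcode. They came from Cell Ranger 6.1.1 and mm10, per the submitters' processing notes; per the labels' protocols, sorted cells went through 5′ v2 chemistry. No source used here gives the annotation release. No further normalization by the authors was seen, since the deposited values are whole counts.

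The 10 factors, the list of 32 others and the markers were chosen with earlier results of these data known, and gate levels were set after viewing the marker sums. Gates, in marker UMIs per 10000, were 1000 for club, 500 for AT2, 100 for upper airway secretory, 80 for AT1 and transitional, 50 for ciliated, 20 for immune and 10 for basal, endothelial and mesenchymal cells. Transitional cells had to lie outside all other gates. In the AT2 gate 205, 86 and 252 kept barcodes in Club-Tracer, BASC-Tracer and AT2-Tracer lay within 0.8 to 1.25 times the gate level. Ungated cells were 16.8%, 23.1% and 13.2% of kept barcodes and mixed ones 1.69%, 2.57% and 5.85%. Mixed barcodes are those in gates that conflict, other than club with AT2 or club with upper airway secretory, and they were left out. No doublet caller was used, except Scrublet (scanpy 1.11.5) as an alternative.

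UMIs were summed per class and library and divided by all UMIs (CPM), with exact Poisson, conditional binomial and Clopper-Pearson 95% intervals (Python 3.11.15, scipy 1.17.1). Thinning to 5000 UMIs left out shallower cells. Genes named from the list of 32 were up to 3 called in each direction per comparison with the largest log2 ratio; likeness named the 4 highest for Sox2 and for Etv5 among genes with 20 CPM in at least 1 point, without markers, mitochondrial, ribosomal and predicted genes. Ratio and call code was tested on simulated data. Results were recomputed under 10 other settings, and under 3 more chosen after seeing the data.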

Additional observations from a re-analysis of the deposited data

How the results depend on the processing

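No paired analysis was possible because each lineage had 1 library. Over 13 alternatives, no log2 ratio of the 10 factors changed direction while called: 2422 of 2460 kept their side of the call rule, 29 gained a call and 9 lost one. Of 2460 levels, 198 moved past their counting interval. The count of factors called in AT2 cells, Club-Tracer over AT2-Tracer, was 1 (Sox2) in place of 0 with abundant genes left out of the totals and 1 with equal weight per cell. With a 50 CPM minimum, calls over all genes were 557 in place of 862 for club over AT2 cells in Club-Tracer, 146 in place of 256 for AT2 cells in Club-Tracer over AT2-Tracer and 51 in place of 90 in BASC-Tracer over AT2-Tracer, since fewer genes are tested. That minimum also ended the calls of Sox2 in BASC-Tracer ciliated cells and in Club-Tracer transitional cells. With equal weight per cell Etv5 in transitional cells was called lower, at -1.08 in both Club-Tracer and BASC-Tracer over AT2-Tracer, Nkx2-1 in club cells of Club-Tracer lost its call (-0.99), Foxa1 in ciliated cells of Club-Tracer lost its call (0.94), and Nkx2-1 (-1.10) and Gata6 (-1.13) in club cells of BASC-Tracer each gained one; the cause was not tested. Across alternatives Sox2 in Club-Tracer AT2 cells ranged over 17.7 to 24.3 CPM. The comparison of lineages has no replicate check, and at these depths 0 UMIs of Sox2 or Sox9 in the smaller classes allow several CPM.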
